A study of Rattus norvegicus with 28 samples.

Results

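Primary rat astrocyte cultures that were stimulated with bacterial lipopolysaccharide (LPS) were compared with matching cultures that were given water (H2O). The comparison holds 8 of the 28 libraries of the series, chosen by their titles: 4 LPS libraries and 4 H2O libraries, numbered 1 to 4 in each group. All 20056 genes listed for these libraries were taken, and 14710 passed the filter on low counts and were tested. The cells came from cortices of postnatal day 1 Wistar rats, grown in flasks in serum-containing medium. Microglia had been shaken off and collected after 10 days, and the astrocytes were stimulated 3 days after their isolation, with 100 ng/ml LPS in glial medium that also held 10% serum. The labels do not say how long the stimulation lasted or which animals or litters stood behind each replicate, so the p-values measure the spread between these samples. They name no genetic change in either group and no sort of the astrocytes, so cells that stayed in the flasks were sequenced with them.

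LPS is a glycolipid of the outer membrane of Gram-negative bacteria. CD14 and LY96 (MD-2) pass it to Toll-like receptor 4 (TLR4), which signals through MyD88 to NF-kB and the MAP kinases and through TRIF to the interferon regulatory factors. NF-kB turns on cytokines, chemokines and its own inhibitors, and the interferon arm turns on antiviral genes through STAT and IRF transcription factors. Astrocytes are the glia that buffer potassium and glutamate, supply neurons with metabolites and support synapses, and in inflammation they take on reactive states, usually described by their intermediate filaments and secreted proteins.

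The promoters of some induced genes carry letters that these factors are known to bind, and 5 of these are shown here because their genes stand for both arms of the response. Each line gives the 250 bases before the annotated transcription start, 5′ to 3′ on the gene's own strand, from RefSeq on the build GRCr8. Capitals mark matches on either strand to the kappa B consensus of NF-kB or to the core of the interferon-stimulated response element (ISRE), GAAANNGAAA, where N is any base. Cxcl1 and Cxcl2 encode neutrophil-attracting chemokines, Vcam1 a leukocyte adhesion molecule, Cxcl10 a T cell-attracting chemokine induced by interferon, and Ifit3 an antiviral protein.
Cxcl1 (chr14:17479322-17479571, minus strand): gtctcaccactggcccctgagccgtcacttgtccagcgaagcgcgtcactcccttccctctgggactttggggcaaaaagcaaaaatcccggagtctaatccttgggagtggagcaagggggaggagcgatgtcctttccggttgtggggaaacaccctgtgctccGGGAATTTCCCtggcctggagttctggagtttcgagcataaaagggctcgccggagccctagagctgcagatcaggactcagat
Cxcl2 (chr14:17467256-17467505, minus strand): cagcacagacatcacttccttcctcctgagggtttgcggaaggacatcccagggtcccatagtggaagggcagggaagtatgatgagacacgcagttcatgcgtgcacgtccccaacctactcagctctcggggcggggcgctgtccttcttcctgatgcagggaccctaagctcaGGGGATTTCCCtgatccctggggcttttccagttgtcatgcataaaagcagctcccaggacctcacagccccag
Vcam1 (chr2:206742784-206743033, minus strand): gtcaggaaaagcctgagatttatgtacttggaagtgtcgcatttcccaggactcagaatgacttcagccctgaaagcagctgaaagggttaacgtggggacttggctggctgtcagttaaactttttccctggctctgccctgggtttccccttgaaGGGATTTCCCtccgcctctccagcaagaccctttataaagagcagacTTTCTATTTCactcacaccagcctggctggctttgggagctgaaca
Cxcl10 (chr14:15988816-15989065, plus strand): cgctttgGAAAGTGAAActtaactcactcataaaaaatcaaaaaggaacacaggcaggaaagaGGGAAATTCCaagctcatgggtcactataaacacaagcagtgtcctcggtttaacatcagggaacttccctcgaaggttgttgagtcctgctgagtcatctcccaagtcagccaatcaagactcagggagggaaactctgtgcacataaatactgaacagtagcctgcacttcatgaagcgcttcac
Ifit3 (chr1:241527076-241527325, plus strand): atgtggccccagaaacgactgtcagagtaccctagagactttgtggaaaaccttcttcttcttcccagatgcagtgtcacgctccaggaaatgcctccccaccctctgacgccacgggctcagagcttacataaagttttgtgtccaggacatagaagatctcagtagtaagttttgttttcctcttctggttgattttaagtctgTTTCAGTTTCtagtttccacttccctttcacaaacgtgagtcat
Cxcl1 and Cxcl2 held overlapping kappa B matches, Vcam1 and Cxcl10 held 1 stretch of each motif, and Ifit3 held 1 ISRE close to the start. Over windows of 250 bases before to 50 after the start, and counting both strands, 4.97% of the 10028 tested genes with a promoter entry held a kappa B match and 2.90% held an ISRE match. Among the 839 genes with an entry that were higher in LPS libraries these shares were 10.4% and 9.42%, and among the 980 that were lower they were 4.59% and 2.04%. The ISRE letters stood in 22 of the 31 interferon-stimulated genes that rose and have an entry. The kappa B letters stood in 7 of 16 such chemokines and in 8 of the 11 tested genes for NF-kB subunits and IkB proteins. Such a match is a stretch of letters and not a measured binding site.

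Each library held between 23742228 and 29867271 counts, so that 3 counts correspond to 0.1 to 0.126 CPM, which are counts per 1000000 counts of the library and the unit of all levels given here. Mitochondrial genes took 1.41 to 3.14% of the counts. Samples with the same replicate number deviated together from their group means (r of 0.53 to 0.63 for the 4 numbers), and replicate number was therefore a block in the test. Some libraries with different numbers also did, within replicates 1 and 2 (r of 0.40 and 0.53) and within 3 and 4 (0.28 and 0.32), and LPS replicate 2 correlated as much with H2O replicate 1 as with H2O replicate 2. The marker genes matched the astrocyte label: 11 astrocyte markers summed to 3053 to 8859 CPM in LPS libraries and 6245 to 13279 CPM in H2O libraries, against 25.6 to 49.4 CPM in LPS and 63.4 to 288 CPM in H2O libraries of the purified microglia of the series. Markers of other cells were also detected. The 18 microglial and macrophage markers summed to 178 to 588 CPM in LPS libraries and 384 to 1046 CPM in H2O libraries, against 8706 to 13868 CPM (LPS) and 14992 to 16816 CPM (H2O) in purified microglia. The 11 fibroblast and mural cell markers summed to 1953 to 3593 CPM in LPS libraries and 2941 to 10429 CPM in H2O libraries, and 11 neuronal markers to 289 to 468 CPM in LPS and 459 to 862 CPM in H2O libraries. The 11 oligodendrocyte lineage markers summed to 182 to 321 CPM in LPS and 211 to 356 CPM in H2O libraries. Of the markers tested 10 of 18 microglial, 6 of 11 astrocyte, 4 of 9 fibroblast and mural, 2 of 6 neuronal and 1 of 9 oligodendrocyte markers were called lower in LPS libraries, against 9.86% of all genes tested, and 1 neuronal marker was called higher. The microglial count ranged between 0 and 13 over the alternatives. Endothelial, ependymal, granulocyte and lymphocyte markers stayed under 31 CPM in sum in every library, with Ttr and Cd79a at or under 3 counts in all libraries together. In bulk RNA, fewer cells of a type and less RNA per cell cannot be told apart.

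**Figure D1:**
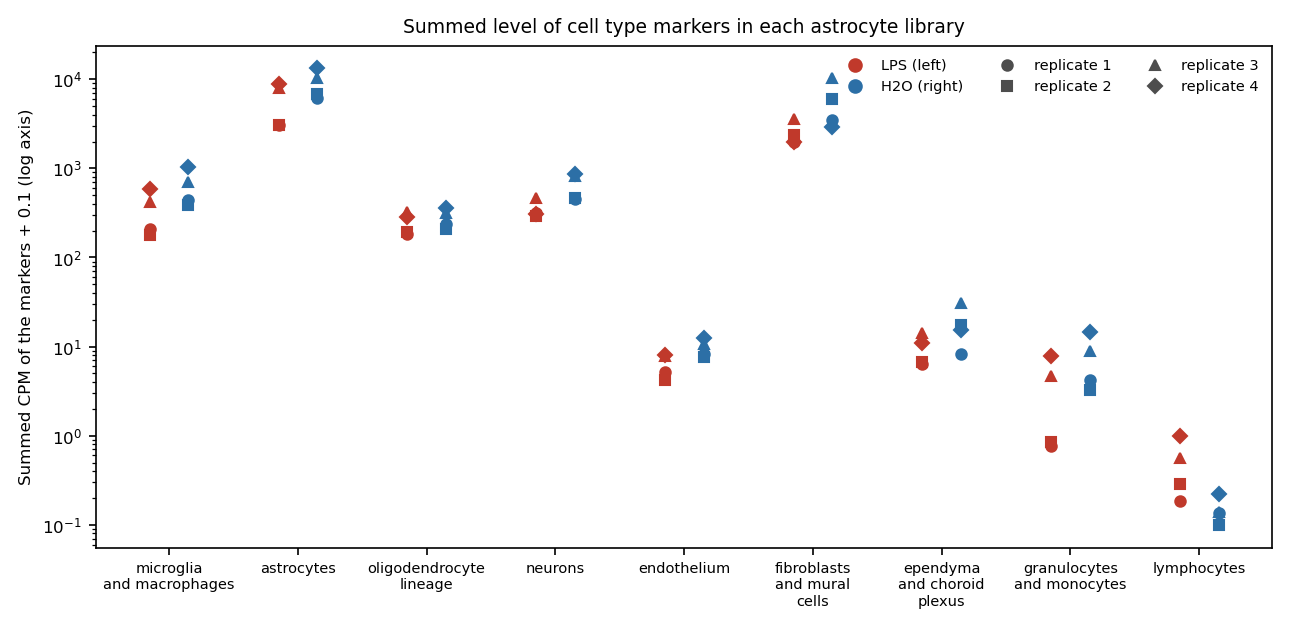
Summed CPM (plus 0.1, log axis) of each marker list in the 4 LPS libraries (left, red) and the 4 H2O libraries (right, blue) of the astrocyte cultures, 1 symbol per replicate. Astrocyte markers reached 3053 to 8859 CPM in LPS libraries and 6245 to 13279 CPM in H2O libraries, and microglial markers were lower in the LPS library of each replicate.

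LPS changed 2611 of the 14710 genes tested (17.7%) at an adjusted p under 0.05 in edgeR's quasi-likelihood test with Benjamini-Hochberg adjustment. Of these, 1160 (7.89% of all tested) were higher and 1451 (9.86%) were lower in LPS libraries. The median log2 change was 0.71 among all genes that rose and -0.91 among all that fell, and the change was larger than 2-fold for 437 and 663 of them. The median over all tested genes was 0.01. In 2610 of the called genes all 4 pairs of LPS and H2O libraries moved the same way, against 43.9% of all tested genes. The calls were made from these same pairs, so this agreement follows largely from the selection and is not separate support. The counts were smaller without the block, at 389 higher and 396 lower. They also moved when 1 replicate was left out, to 416 and 561 without replicate 1, 712 and 1035 without replicate 2, 419 and 547 without replicate 3, and 699 and 1075 without replicate 4. Of the 154 named genes that were called, 52 were not called without the block and 41 were not called when 1 of the replicates was left out. These 41 are named with those fits in the paragraphs that describe them. Values with an error are the mean ± SD for CPM, over 4 astrocyte or 3 microglial libraries, and the estimate ± its standard error for log2 changes, which are always LPS over H2O.

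The 12 largest rises, counting only called genes whose pairs all moved one way and whose mean reached 10 CPM in LPS or H2O libraries, were those of Ccl5, Nos2, Csf3, Wfdc21, RT1-Da, Il1a, Cxcl11, Il1b, Ccl19, Ccl20, Mmp9 and Cxcl2, of which 5 are chemokines. Ccl5 (RANTES), a chemokine for T cells and monocytes, led them with 136, 119.8, 1120.5 and 788 CPM in LPS libraries, against 0, 0.447, 0.278 and 0.952 CPM in H2O libraries. It was under 1 CPM in every H2O library and higher in LPS replicates 3 and 4 than in 1 and 2, with a log2 change of 10.22 ± 0.64 (adjusted p = 0.00154). Nos2, the inducible nitric oxide synthase, had 17.4, 9.43, 19.4 and 38.5 CPM in LPS libraries, against 0, 0.0745, 0 and 0.0414 CPM in H2O libraries. Only 3 counts stood behind the H2O value, so the ratio of summed counts was 731 (95% interval 249.7 to 3545). Csf3, the granulocyte colony-stimulating factor, likewise had 12, 5.17, 14.7 and 51.7 CPM in LPS libraries, against 0.0701, 0.0372, 0 and 0 CPM in H2O libraries, a ratio of 711 (95% interval 243 to 3448). Without LPS replicate 4 the ratio of Csf3 was 375. The 12 largest falls, counted likewise, were those of Actc1, Acta1, LRRTM1, Synm, Krt16, Sostdc1, Wscd2, Nkain4, Lypd1, Slc24a2, Cx3cr1 and Pcp4l1. LRRTM1, a synaptic adhesion protein, and Slc24a2, a sodium-calcium exchanger, had log2 changes of -3.20 ± 0.67 and -2.84 ± 0.65. Actc1, the cardiac muscle actin, had 0.379, 0.609, 3.48 and 0.285 CPM in LPS libraries, against 12.2, 77.4, 122 and 1.61 CPM in H2O libraries. Acta1, the skeletal muscle actin, had 0.590, 0.304, 23.6 and 1.35 CPM in LPS libraries, against 16.1, 71.6, 261 and 5.55 CPM in H2O libraries. Their levels varied widely between replicates, and the groups overlapped. The fall of Acta1 (log2 change -4.20 ± 0.85, adjusted p = 0.0277, 1.5e-04 to 0.244 over the alternatives) also did not pass without the block or without the filter. Sostdc1, a secreted antagonist of BMP and Wnt signals, had 4.55, 6.77, 21.6 and 16.0 CPM in LPS libraries, against 39.8, 46.2, 226 and 143 CPM in H2O libraries, and every LPS value lay below every H2O value (log2 change -3.10 ± 0.11, adjusted p = 6.80e-04). LRRTM1 (-2.69 to -2.64 without replicate 3 or 4), Slc24a2 (-3.10 to -2.35 without replicate 1, 3 or 4) and Acta1 (-4.70 to -4.07 without replicate 1 or 3) had log2 changes that did not pass in those fits.

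**Figure D2:**
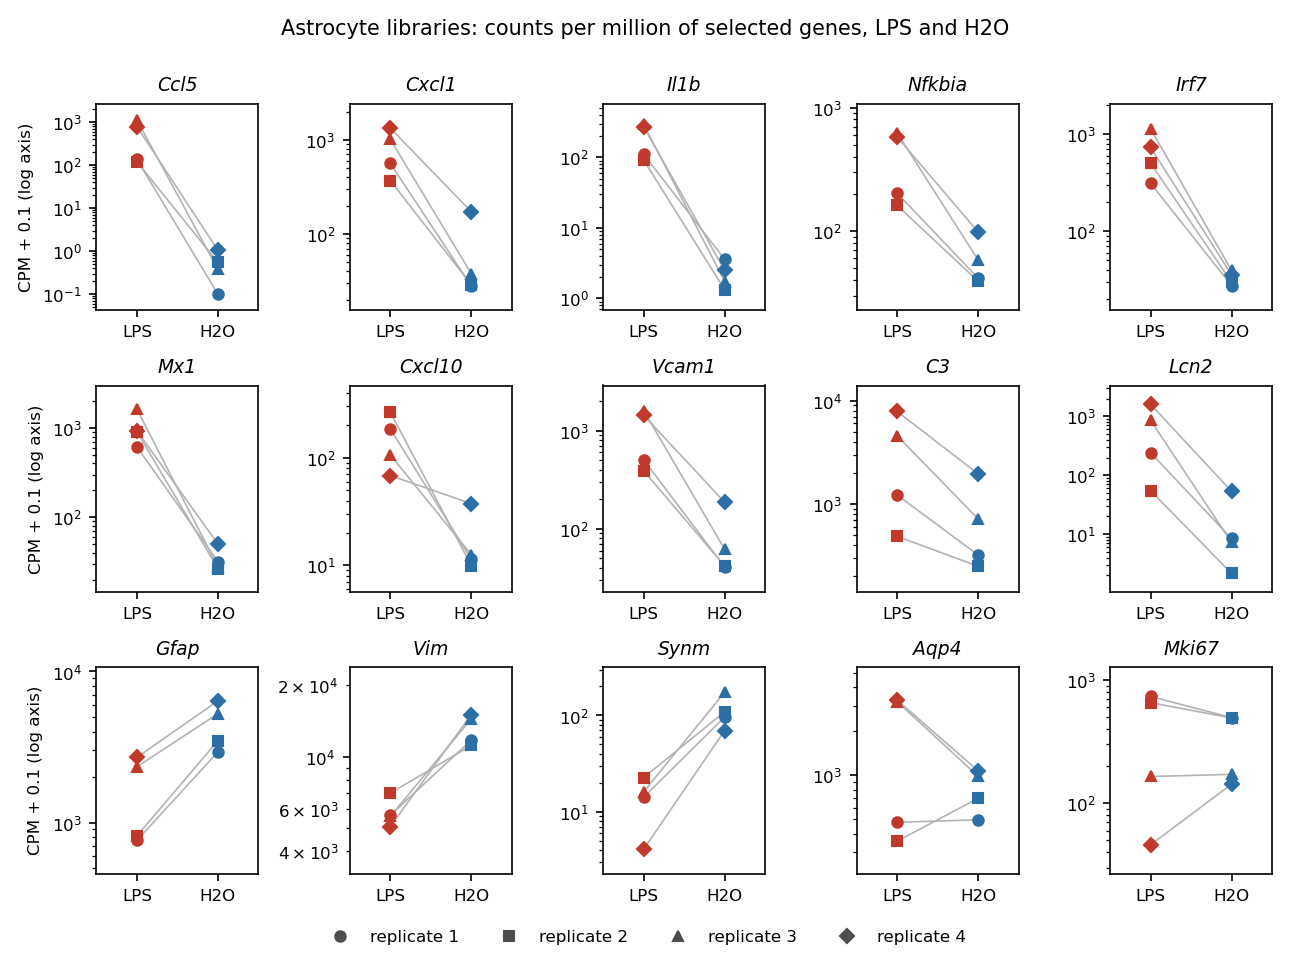
CPM (plus 0.1, log axis) of 15 genes in the LPS library (red, left) and the H2O library (blue, right) of each replicate, joined by a line. Ccl5 to Lcn2 were higher in the LPS library of all 4 pairs, Gfap, Vim and Synm were lower in all 4, and Aqp4 and Mki67 moved differently in replicates 1 and 2 than in replicates 3 and 4.

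The receptor for LPS itself did not pass the test. Tlr4 had 1.14, 1.14, 2.61 and 4.00 CPM in LPS libraries, against 3.79, 2.08, 3.58 and 6.38 CPM in H2O libraries, lower in the LPS library of each pair, and its groups overlapped (log2 change -0.88 ± 0.27, adjusted p = 0.0739). Of 18 tested members of the TLR4 complex and its adaptors, 6 rose and none fell, with a median log2 change of 0.36. Cd14, the co-receptor that hands LPS to the complex, had 28.8, 21.6, 54.7 and 102 CPM in LPS libraries, against 15.1, 12.9, 18.6 and 32.9 CPM in H2O libraries. It was higher in the LPS library of every pair although the groups overlapped (log2 change 1.24 ± 0.20, adjusted p = 0.0133, 1.58e-07 to 0.165 over the alternatives). Ly96 (MD-2), which binds the lipid part of LPS, rose by 0.94 ± 0.17 (adjusted p = 0.0191), and the adaptor kinase Irak2 by 1.21 ± 0.14 (adjusted p = 0.00529). The kinase Irak1 and its partner Tab2 did not pass and had log2 changes of -0.18 ± 0.07 and -0.20 ± 0.09. Among 17 other sensors 9 rose and 3 fell. Tlr2, the receptor for bacterial lipopeptides, rose by 1.75 ± 0.14, Nod2, a sensor of peptidoglycan fragments, by 3.70 ± 0.33, and Dhx58, a regulator of RNA sensing, by 2.62 ± 0.22. Tlr5, the flagellin receptor, fell by 2.19 ± 0.18 on the log2 scale, with 2.74, 2.43, 1.41 and 1.26 CPM in LPS libraries, against 14.5, 8.19, 6.24 and 7.37 CPM in H2O libraries. The Tlr5 groups did not overlap (adjusted p = 0.00244). Cd14 (1.12 without replicate 3) and Ly96 (0.88 to 1.00 without replicate 1, 3 or 4) had log2 changes that did not pass in those fits.

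NF-kB genes rose together. Of 13 tested subunits and IkB proteins 10 rose and none fell (median log2 change 1.40), and of 20 genes for feedback and survival 17 rose and none fell (median 1.43), against 7.89% of all genes tested that rose. Nfkbia encodes IkB alpha, the inhibitor that NF-kB restores after activation, and had 202, 161, 623 and 577 CPM in LPS libraries, against 41.4, 39.1, 58.1 and 98.2 CPM in H2O libraries. All LPS values were above all H2O values, the highest being those of replicates 3 and 4 (log2 change 2.59 ± 0.25, adjusted p = 0.00417). Nfkb2 (p100) had 189, 169, 249.9 and 292 CPM in LPS libraries, against 38.9, 34.7, 48.2 and 66.8 CPM in H2O libraries. Its change was nearly the same in all 4 pairs and had the smallest adjusted p of the list (log2 change 2.28 ± 0.07, adjusted p = 4.26e-04). Relb rose by 2.08 ± 0.10, Nfkbie by 1.89 ± 0.11, Nfkb1 by 1.40 ± 0.10 and Rela by 0.77 ± 0.17, the last with an adjusted p of 0.0346, 5.36e-04 to 0.133 over the alternatives. Ikbkb and Ikbkg, subunits of the IkB kinase, did not pass, with log2 changes of 0.50 ± 0.15 and 0.16 ± 0.09. Among the feedback genes, Zc3h12a (Regnase-1), which degrades cytokine mRNA, rose by 2.75 ± 0.10, Birc3, an inhibitor of apoptosis, by 3.52 ± 0.30 and Tnfaip3 (A20), which edits ubiquitin chains upstream of NF-kB, by 2.82 ± 0.35. Tnip3, a partner of A20, had 3.37, 3.00, 6.36 and 6.4 CPM in LPS libraries, against 0, 0.0372, 0.0795 and 0.0414 CPM in H2O libraries. Sod2, the mitochondrial superoxide dismutase, reached 845, 523, 5326 and 7218 CPM in LPS libraries, against 146, 141, 190.0 and 414 CPM in H2O libraries. Its LPS level in replicates 3 and 4 was far above that in replicates 1 and 2 (log2 change 3.36 ± 0.59, adjusted p = 0.0184, 1.93e-06 to 0.0569 over the alternatives). Of 22 AP-1 and immediate early factors 6 rose, among them Klf4 (1.77), Batf2 (2.88) and Fosl2 (1.47), while Jun did not pass (-0.80 ± 0.23, adjusted p = 0.0677). Of 15 MAPK phosphatases and feedback genes 2 rose, Trib3 (2.22) and Dusp2 (3.38). Rela (0.62 to 0.91 without replicate 1, 2, 3 or 4), Sod2 (2.84 to 3.67 without replicate 1 or 3), Fosl2 (1.42 without replicate 1), Trib3 (2.14 without replicate 3) and Dusp2 (2.97 to 3.36 without replicate 2, 3 or 4) had log2 changes that did not pass in those fits.

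Of 24 cytokines 14 rose (10 to 17 over the alternatives) and 1 fell, with a median log2 change of 1.96, which was the same with Il12b, at 0 counts in H2O libraries, set to its bound. Il1b, a cytokine that the inflammasome activates, had 110.2, 91.2, 293 and 269.9 CPM in LPS libraries, against 3.47, 1.23, 1.63 and 2.40 CPM in H2O libraries, without overlap (log2 change 6.36 ± 0.47, adjusted p = 0.00236). Tnf had 10.9, 8.90, 28.3 and 34.5 CPM in LPS libraries, against 2.07, 1.41, 3.62 and 5.30 CPM in H2O libraries and rose by 2.71 ± 0.15 (adjusted p = 0.00108). Il6 had 5.81, 6.09, 30.9 and 28.6 CPM in LPS libraries, against 0.246, 0.968, 0.755 and 0.662 CPM in H2O libraries and rose by 4.52 ± 0.54 (adjusted p = 0.00677). All 3 were higher in LPS replicates 3 and 4 than in 1 and 2, and lower in each H2O library. Csf1, the growth factor of microglia, was present in both groups, with 912, 687, 1773 and 1756 CPM in LPS libraries, against 314, 330.1, 476 and 529.6 CPM in H2O libraries, and rose by 1.57 ± 0.17 (adjusted p = 0.00432). Csf2 (GM-CSF) had 3.16, 1.10, 6.96 and 21.0 CPM in LPS libraries, against 0, 0.0372, 0.0397 and 0.124 CPM in H2O libraries. Il12b, the shared subunit of IL-12 and IL-23, had 0.884, 1.26, 7.06 and 1.63 CPM in LPS libraries and no count in any H2O library, at least 102-fold higher against a floor of 3 counts over the H2O group. LPS replicate 3 held most of these counts, and without it the bound was 44.0-fold. Il1rn, the natural antagonist of the IL-1 receptor, had 2.49, 1.18, 120.2 and 171 CPM in LPS libraries, against 1.54, 1.04, 1.87 and 3.31 CPM in H2O libraries. It was high in LPS replicates 3 and 4 and near the H2O level in 1 and 2, and did not pass (log2 change 3.80 ± 1.37, adjusted p = 0.115). The levels of several of these genes were much higher in purified LPS-treated microglia: 2721 ± 2368 CPM for Il1b, 260.5 ± 258 CPM for Tnf and 1542 ± 1237 CPM for Nos2 (SD, n = 3). Microglial marker RNA was lower in the LPS library of every astrocyte pair, and its part in the rise of these genes was not tested. Of 25 cytokine receptors 8 rose, including Cd40 (2.03), Tnfrsf1b (1.04) and Il6r (1.23), and 3 fell, including the microglial receptor Csf1r (-1.86). Il12b did not pass without replicate 3 (adjusted p = 0.056).

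Chemokines had the highest median change of the lists. Of 24 tested, 21 rose and none fell, with a median log2 change of 4.84, and between 17 and 22 rose under the alternatives. Ccl2 and Ccl7 attract monocytes. Ccl2 had 1664, 1316, 2223 and 2519.7 CPM in LPS libraries, against 185, 90.4, 42.7 and 145 CPM in H2O libraries (log2 change 4.21 ± 0.46, adjusted p = 0.00549). Ccl7 had 1146, 848, 2008 and 2208 CPM in LPS libraries, against 122, 59.0, 33.2 and 132 CPM in H2O libraries (log2 change 4.25 ± 0.50, adjusted p = 0.00642). Neither gene's groups overlapped. Cxcl1 had 562, 369.6, 1015 and 1333 CPM in LPS libraries, against 28.0, 28.9, 37.8 and 173 CPM in H2O libraries, with the highest H2O value in replicate 4 (log2 change 3.94 ± 0.32, adjusted p = 0.00287, 3.84e-42 to 0.0583 over the alternatives). Cxcl16, a membrane-bound chemokine for T cells, had the smallest adjusted p of the list. It had 518, 584, 608 and 942 CPM in LPS libraries, against 41.9, 48.7, 53.3 and 99.3 CPM in H2O libraries, and rose by 3.51 ± 0.08 (adjusted p = 1.96e-04). Cx3cl1 (fractalkine), the ligand of the microglial receptor CX3CR1, had 190.3, 224, 242 and 405 CPM in LPS libraries, against 28.1, 18.9, 18.3 and 56.7 CPM in H2O libraries and rose by 3.23 ± 0.20 (adjusted p = 0.00146). Ccl20, Ccl3, Ccl4 and Cxcl3 rose by 6.27, 6.03, 5.83 and 5.46 on the log2 scale. Ccl22 had 2.82, 9.51, 8.57 and 2.98 CPM in LPS libraries and 3 counts in all in H2O libraries, a ratio of 216 (95% interval 73.5 to 1049.6). Cxcl10 had 185, 265, 106 and 68.2 CPM in LPS libraries, against 11.3, 9.87, 12.5 and 37.4 CPM in H2O libraries. Unlike most chemokines it was higher in LPS replicates 1 and 2, its H2O level stood out in replicate 4, and its call was lost under several alternatives (log2 change 3.24 ± 0.68, adjusted p = 0.0298, 8.55e-06 to 0.201 over the alternatives). Cxcl12, which many stromal cells make without stimulation, did not pass (1.66 ± 0.48, adjusted p = 0.0689), nor did Cxcl14 (0.05 ± 0.12, adjusted p = 0.799). Levels in LPS-treated purified microglia lay on either side of those in LPS-treated astrocyte cultures, and these differences in level were not tested. Ccl5 averaged 541 ± 496 CPM in the astrocyte cultures (SD, n = 4) and 32.9 ± 13.7 CPM in microglia (SD, n = 3), and Ccl20 averaged 460.1 ± 498 CPM in the astrocyte cultures and 1.12 ± 1.76 CPM in microglia. Cxcl1 averaged 819.7 ± 436 CPM in the astrocyte cultures and 257 ± 381 CPM in microglia. Cxcl10 averaged 156 ± 87.6 CPM in the astrocyte cultures and 1436 ± 209 CPM in microglia. Cxcl11 averaged 69.4 ± 13.5 CPM in the astrocyte cultures and 155 ± 70.4 CPM in microglia. Cxcl2 averaged 118 ± 84.5 CPM in the astrocyte cultures and 403 ± 575 CPM in microglia. The microglial means of Cxcl2, Cxcl1 and Ccl20 rest mostly on 1 library, LPS replicate 3. The 3 LPS libraries of microglia had 110, 34.9 and 1066 CPM for Cxcl2 and 59.7, 15.0 and 697 CPM for Cxcl1. For Ccl20 they had 0.152, 0.0522 and 3.15 CPM. Of 7 chemokine receptors tested none rose and 4 fell, among them Cx3cr1 (-2.81), Cmklr1 (-2.58) and Cxcr4 (-1.07). Cx3cr1 and Cmklr1 are receptors of microglia and macrophages, whose marker sum was lower in LPS libraries. In purified microglia Cx3cr1 had a log2 change of -4.75 ± 1.02 with LPS, and of the 18 microglial markers 5 fell and 3 rose there. The share of all genes called in microglia alone is not given here, and the astrocyte shares do not apply to these counts. The part of fewer such cells, or of lower levels within them, in these falls was not tested. Cxcl10 (2.69 to 3.30 without replicate 1, 2 or 3), Cmklr1 (-2.51 to -2.31 without replicate 1 or 3) and Cxcr4 (-1.18 to -1.06 without replicate 1 or 3) had log2 changes that did not pass in those fits.

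Interferon-stimulated genes rose almost without exception. Of 42 tested, 41 rose and 1 fell, with a median log2 change of 1.98, and between 34 and 42 rose under the alternatives. Mx1, an antiviral GTPase, had 614, 911, 1619.8 and 930.0 CPM in LPS libraries, against 31.8, 26.6, 27.8 and 50.3 CPM in H2O libraries, without overlap (log2 change 4.87 ± 0.34, adjusted p = 0.00211). Irf7, the factor that amplifies type I interferon, had 312, 502, 1144 and 731 CPM in LPS libraries, against 27.4, 29.7, 39.3 and 35.4 CPM in H2O libraries (log2 change 4.22 ± 0.26, adjusted p = 0.00146). Ifit3 had 42.2, 43.3, 215 and 65.3 CPM in LPS libraries, against 1.82, 2.53, 2.42 and 3.31 CPM in H2O libraries, highest in LPS replicate 3 (log2 change 4.86 ± 0.45, adjusted p = 0.00381). Oasl, Ifit2 and Parp14 rose by 3.90 ± 0.24, 3.75 ± 0.27 and 2.04 ± 0.14, and the guanylate-binding protein Gbp2 reached 2773, 2726, 3327 and 3439 CPM in LPS libraries, against 474, 289, 249 and 602 CPM in H2O libraries. The 1 member that fell was Epsti1 (-2.05 ± 0.31, adjusted p = 0.0109, 1.93e-07 to 0.188 over the alternatives). Ifnb1, the interferon beta gene, had 4 counts in all LPS libraries together and none in H2O libraries, and was not tested. Of 19 interferon regulatory factors, STATs and receptors 8 rose and 1 fell. Ifngr1 and Ifngr2, the chains of the interferon gamma receptor, rose by 1.37 ± 0.18 and 0.96 ± 0.07. Irf8, a factor of microglia and other myeloid cells, fell by 2.00 ± 0.28 on the log2 scale (adjusted p = 0.00978, 1.42e-10 to 0.255 over the alternatives), while Stat3 did not pass (0.82 ± 0.22, adjusted p = 0.0611).

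Class I antigen presentation genes rose with them. Of 16 tested members of the MHC class I pathway and the immunoproteasome 15 rose, with a median log2 change of 1.48. B2m, the light chain of class I molecules, had 1677, 1529.5, 4050.2 and 3951 CPM in LPS libraries, against 717, 708, 861 and 889 CPM in H2O libraries, again highest in LPS replicates 3 and 4 (log2 change 1.70 ± 0.26, adjusted p = 0.0122). Nlrc5, the activator of class I genes, rose by 2.05 ± 0.14, the peptide transporter Tap1 by 1.5 ± 0.11 and the proteasome subunit Psmb9 by 1.69 ± 0.19. RT1-A2 and RT1-S3, class I heavy chains, rose by 2.55 ± 0.27 and 2.36 ± 0.24, but these near-identical genes can share reads and their separate values are uncertain. Of 10 tested class II and co-stimulation genes 6 rose (4 to 12 over the alternatives) and none fell. Cd74, the invariant chain, had 4.38, 10.5, 202 and 332 CPM in LPS libraries, against 0.491, 1.27, 1.63 and 2.19 CPM in H2O libraries (log2 change 5.72 ± 0.97, adjusted p = 0.017, 2.14e-06 to 0.0862 over the alternatives). RT1-Da had 0.927, 2.05, 34.1 and 63.7 CPM in LPS libraries, against 0.0701, 0.0372, 0.0397 and 0.248 CPM in H2O libraries (adjusted p = 0.00236), and Ciita, the master activator of class II genes, had 1.31, 1.03, 10.1 and 9.62 CPM in LPS libraries, against 0.526, 0.447, 0.397 and 0.538 CPM in H2O libraries (log2 change 2.99 ± 0.74, adjusted p = 0.0464, 1.19e-04 to 0.157 over the alternatives). In these 3 genes every LPS value was above every H2O value, and the highest values were those of LPS replicates 3 and 4, while LPS replicates 1 and 2 stayed under 11 CPM. RT1-DMa and RT1-DMb, which load class II molecules and were present in H2O libraries, did not pass (-0.77 ± 0.21 and -1.61 ± 0.48). B2m (1.51 without replicate 3), Cd74 (4.95 without replicate 3) and Ciita (2.32 to 3.53 without replicate 1, 3 or 4) had log2 changes that did not pass in those fits.

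Some induced genes were too uneven for the filter on low counts, which asks for a minimum level in 4 libraries. Of 769 listed members of the 37 functional lists 71 were not tested, and 8 of these were called, all higher, when no filter was used. The share called among all genes that the filter removed is not given here, so this count is not a result about the lists. A gene with few or no counts in H2O libraries can hardly be called lower, so the common direction is not separate support. Orm1 (alpha-1-acid glycoprotein), an acute-phase protein, had 0.674, 0.342, 34.6 and 108 CPM in LPS libraries, against 0, 0, 0 and 0.124 CPM in H2O libraries. Pla2g2a, a secreted phospholipase, had 0.295, 0.0761, 15.1 and 29.7 CPM in LPS libraries, against 0, 0, 0.0397 and 0 CPM in H2O libraries. RT1-Bb, a class II beta chain, had 0.168, 0.456, 13.6 and 21.2 CPM in LPS libraries, against 0, 0, 0.199 and 0 CPM in H2O libraries. RT1-Db1 and RT1-Ba, other class II chains, reached 13.8 and 13.5 CPM in LPS replicate 4 and at most 0.166 CPM in an H2O library. Each of these 5 genes was above 4 CPM in LPS replicates 3 and 4 and under 1 CPM in the other 6 libraries. Without the filter the adjusted p was 3.73e-05 for Orm1 (2.47e-08 to 0.00166 over all settings that tested it) and 1.76e-04 for Pla2g2a (1.24e-04 to 9.82e-04). Mmp12, the macrophage elastase, and Slpi, an antiprotease, were also higher in LPS replicates 3 and 4 than in 1 and 2. Mmp12 had 0.126, 0.152, 4.19 and 6.57 CPM in LPS libraries, and Slpi had 0.126, 0.0380, 1.94 and 7.46 CPM there and no count in H2O libraries. Without the filter the adjusted p was 6.63e-04 for Mmp12 (5.91e-09 to 0.00187 over all settings that tested it) and 0.00775 for Slpi (0.00125 to 0.0534), whose call was lost in 1 of them.

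Complement genes split. Of 21 tested 3 rose (0 to 7 over the alternatives) and 6 fell (1 to 8), with a median log2 change of -0.06. C3, the central component, had 1217, 484, 4559 and 7837 CPM in LPS libraries, against 319.5, 248, 715 and 1950.4 CPM in H2O libraries. It was higher in the LPS library of every pair, and the groups overlapped (log2 change 1.92 ± 0.29, adjusted p = 0.0129, 4.36e-11 to 0.244 over the alternatives). C4b and C1s, of the classical pathway, rose by 2.72 ± 0.30 and 1.53 ± 0.34, and the adjusted p of C1s was 0.0357, 8.40e-06 to 0.142 over the alternatives. Cfb, factor B of the alternative pathway, had 299.8, 354, 4734 and 4233 CPM in LPS libraries, against 113, 131, 189 and 200.4 CPM in H2O libraries. Its groups did not overlap, but the change was far larger in replicates 3 and 4 and did not pass (log2 change 2.99 ± 0.79, adjusted p = 0.0544). Cfp (properdin), which stabilises the alternative pathway's convertase, fell by 1.61 ± 0.27 on the log2 scale, and C1qa fell by 2.49 ± 0.47. C1qa is a microglial gene, and the part of the lower microglial marker sum in this fall was not tested. C3 (1.91 without replicate 1), C1s (1.26 to 1.70 without replicate 1, 3 or 4), Cfp (-1.49 without replicate 3) and C1qa (-2.21 without replicate 1) had log2 changes that did not pass in those fits.

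Among 12 acute-phase and antiprotease genes 5 rose (1 to 12 over the alternatives) and 1 fell, where 7.89% of all genes tested rose and 9.86% fell. Lcn2 (lipocalin-2), a secreted iron-siderophore binder and a common marker of reactive astrocytes, had 242, 54.8, 858 and 1602 CPM in LPS libraries, against 8.31, 2.05, 7.11 and 53.2 CPM in H2O libraries. The groups did not overlap although LPS replicate 2 was low and H2O replicate 4 high (log2 change 5.37 ± 0.46, adjusted p = 0.00319, 1.49e-49 to 0.0645 over the alternatives). Steap4, a metalloreductase, had 4.55, 2.13, 142 and 179 CPM in LPS libraries, against 0.772, 0.372, 1.03 and 5.05 CPM in H2O libraries (log2 change 4.97 ± 0.87, adjusted p = 0.0181, 5.33e-05 to 0.0903 over the alternatives). Ptx3 had an uneven change that did not pass, at 3.06 ± 0.82 (adjusted p = 0.0563). Serpina3n had at most 1 count in any library and was not tested. Of 19 genes for nitric oxide, prostaglandins and the oxidative burst 8 rose and 3 fell. Besides Nos2, Ass1 and Gch1, which supply arginine and the cofactor of nitric oxide synthase, rose by 2.77 ± 0.36 and 2.53 ± 0.61, and Acod1, which makes itaconate, by 5.57 ± 0.33. Ptgs2 (COX-2) rose, with 22.1, 14.4, 13.3 and 8.20 CPM in LPS libraries, against 3.54, 5.03, 4.53 and 1.74 CPM in H2O libraries (log2 change 1.99 ± 0.24, adjusted p = 0.00573). Alox5ap, a leukotriene synthesis protein of myeloid cells, fell by 3.61 ± 0.38 on the log2 scale. Steap4 (3.90 to 4.80 without replicate 3 or 4) and Gch1 (1.99 to 2.85 without replicate 1, 3 or 4) had log2 changes that did not pass in those fits.

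Adhesion and matrix genes included both rises and falls, where 7.89% of all genes tested rose and 9.86% fell. Of 15 adhesion molecules 6 rose and 2 fell, the falls being near the share of all genes. Vcam1 had 503, 389, 1600.1 and 1429.7 CPM in LPS libraries, against 40.6, 41.8, 61.6 and 186 CPM in H2O libraries, without overlap (log2 change 3.63 ± 0.32, adjusted p = 0.00348, 4.33e-36 to 0.0569 over the alternatives). It averaged 981 ± 623 CPM in LPS-treated astrocyte cultures (SD, n = 4) and 0.886 ± 0.712 CPM in LPS-treated microglia (SD, n = 3). Icam1 rose by 1.81 ± 0.19 (adjusted p = 0.00501, 1.58e-17 to 0.084 over the alternatives) and Cd44, the hyaluronan receptor, by 1.12 ± 0.21, whereas the neural adhesion molecule Ncam1 fell by 1.07 ± 0.14 on the log2 scale. Of 22 matrix proteases and inhibitors 5 rose (4 to 11 over the alternatives) and 4 fell (2 to 8), with a median log2 change of 0.07. Mmp9, a gelatinase, had 63.6, 42.1, 125 and 109 CPM in LPS libraries, against 1.02, 1.23, 0.596 and 1.24 CPM in H2O libraries (log2 change 6.27 ± 0.43, adjusted p = 0.00196). Mmp3 (stromelysin-1) had 7.03, 1.41, 13.9 and 8.97 CPM in LPS libraries and 3 counts in all in H2O libraries, a ratio of 281 (95% interval 95.7 to 1364). Their inhibitor Timp3 fell by 2.01 ± 0.24, with 64.1, 95, 69.9 and 32.8 CPM in LPS libraries, against 181, 256, 397 and 209 CPM in H2O libraries. Of 30 collagens, laminins and proteoglycans 11 fell (3 to 17 over the alternatives) and 1 rose (median log2 change -0.47). Col12a1, a collagen that decorates fibrils, had 197, 216, 192 and 104 CPM in LPS libraries, against 585, 873, 945 and 641 CPM in H2O libraries (log2 change -2.11 ± 0.16, adjusted p = 0.00234). Col11a1 fell by 2.05 ± 0.13 and Bcan (brevican), a proteoglycan of astrocytes, by 1.3 ± 0.13, while the laminin chain Lama1 rose by 2.66 ± 0.43. Fibroblast and mural cell markers, which include collagen genes, were also lower in sum in LPS libraries (-0.82 for Col1a2), and their part in the falls of the collagens was not tested. Cd44 (1.09 without replicate 4) and Lama1 (2.49 without replicate 3) had log2 changes that did not pass in those fits.

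The main astrocyte filament genes fell. Gfap, the filament protein that defines astrocytes and is known to rise in most reactive states in tissue, had 762, 815, 2338 and 2700.2 CPM in LPS libraries, against 2932, 3481, 5252 and 6388 CPM in H2O libraries. Every LPS value was below every H2O value (log2 change -1.59 ± 0.21, adjusted p = 0.00803, 1.47e-12 to 0.145 over the alternatives). Vim (vimentin), its partner filament, had 5676, 7021, 5605 and 5077 CPM in LPS libraries, against 11729.8, 11147, 14432 and 15018 CPM in H2O libraries, without overlap (log2 change -1.14 ± 0.16, adjusted p = 0.00803). Synm (synemin), which links these filaments to other structures, had 14.1, 22.6, 16.1 and 4.00 CPM in LPS libraries, against 96.5, 109, 175 and 69.7 CPM in H2O libraries and fell most, by 3.10 ± 0.30 on the log2 scale (adjusted p = 0.00401). Of 24 tested filament and identity genes 10 fell (3 to 17 over the alternatives) and none rose, with a median log2 change of -0.59. Fabp7, a fatty acid-binding protein of radial glia and young astrocytes, fell by 1.02 ± 0.09 and S100b by 1.33 ± 0.18. Sox9, the lineage factor, did not pass (-0.70 ± 0.19, adjusted p = 0.0602), nor did Aldh1l1, a folate enzyme used as a pan-astrocyte marker (0.62 ± 0.27, adjusted p = 0.172), or Clu (clusterin), which had 967, 893, 5343 and 6540.3 CPM in LPS libraries, against 722, 789.7, 1477 and 1372 CPM in H2O libraries (adjusted p = 0.112). Aldh1l1 and Clu were higher in LPS replicates 3 and 4 than in any H2O library. S100b (log2 change -1.29 without replicate 3) did not pass in that fit.

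Of 20 tested genes for transport, channels and junctions 11 fell (3 to 15 over the alternatives) and 1 rose (median -0.59). Kcnj10 (Kir4.1), the potassium channel of astrocytes, had 40.3, 48.8, 39.5 and 33.7 CPM in LPS libraries, against 100.4, 70.9, 117 and 210.0 CPM in H2O libraries, without overlap (log2 change -1.49 ± 0.31, adjusted p = 0.0302, 1.19e-05 to 0.118 over the alternatives). Atp1b2, a sodium pump subunit, fell by 1.33 ± 0.08 on the log2 scale (adjusted p = 0.0012), the glucose transporter Slc2a1 by 1.19 ± 0.13 and the glutamate transporter Slc1a3 (GLAST) by 0.62 ± 0.12. The other glutamate transporter, Slc1a2 (GLT-1), did not pass (0.33 ± 0.23, adjusted p = 0.364), nor did the gap junction gene Gja1 (connexin 43), which had 257, 271, 215 and 214 CPM in LPS libraries, against 275, 316, 316 and 292 CPM in H2O libraries (-0.31 ± 0.09, adjusted p = 0.0581). Slc7a11, the cystine-glutamate exchanger, was the 1 member that rose, by 2.12 ± 0.26 (adjusted p = 0.00742, 4.52e-13 to 0.13 over the alternatives), with 96.1, 53.7, 11.5 and 17.5 CPM in LPS libraries, against 15.6, 9.83, 2.46 and 8.40 CPM in H2O libraries. Aqp4, the water channel of astrocyte endfeet, had 478, 355, 3194 and 3269 CPM in LPS libraries, against 497, 697, 988 and 1076 CPM in H2O libraries. LPS replicates 3 and 4 were above all H2O libraries and LPS replicates 1 and 2 below them, and over 4 pairs the change did not pass (0.60 ± 0.53, adjusted p = 0.478). Kcnj10 (-1.56 to -1.48 without replicate 1 or 3) and Slc1a3 (-0.65 to -0.61 without replicate 1 or 3) had log2 changes that did not pass in those fits.

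Genes by which astrocytes act on neurons and on development included many that fell, in numbers that depended on the block and on single replicates. Of all genes tested 7.89% rose and 9.86% fell. Of 19 genes that modulate synapses 11 fell and none rose (median -0.60), but none fell without the block, 2 without replicate 1 and 3 without replicate 3. Thbs1 (thrombospondin-1), which promotes synapse formation, had 357, 494, 1223 and 678 CPM in LPS libraries, against 1757, 3886, 4450.4 and 1103 CPM in H2O libraries (log2 change -1.95 ± 0.40, adjusted p = 0.0284, 1.70e-07 to 0.107 over the alternatives). Mertk and Megf10, receptors with which astrocytes engulf synapses, fell by 1.09 ± 0.10 and 0.46 ± 0.07. Of 30 Notch, Wnt, Shh and BMP genes 13 fell (1 to 17 over the alternatives) and 2 rose (median -0.46). The 2 that rose were the Notch ligand Jag1, with 72.5, 103, 113 and 102 CPM in LPS libraries, against 31.6, 40.6, 45.1 and 42.0 CPM in H2O libraries (log2 change 1.3 ± 0.07, adjusted p = 0.00108), and Bmp2 (1.71 ± 0.44, adjusted p = 0.0492, 2.75e-05 to 0.158 over the alternatives). Hey1, a Notch target, fell by 1.00 ± 0.15 and the ligand Wnt7a by 1.83 ± 0.38 on the log2 scale. Of 27 growth and neurotrophic factors 5 fell (2 to 12 over the alternatives) and 2 rose. The rises in this list and in the Notch, Wnt, Shh and BMP list were near the share of all genes. Ntf3 (neurotrophin-3) fell by 2.30 ± 0.24 and Fgf1 by 1.28 ± 0.19, as did Igf1 by 2.18 ± 0.38 (adjusted p = 0.0167, 3.52e-07 to 0.135 over the alternatives), a factor that microglia also make. Thbs1 (-2.0 to -1.61 without replicate 1, 2 or 3), Megf10 (-0.44 without replicate 1), Bmp2 (1.36 to 1.98 without replicate 1, 2 or 3), Hey1 (-1.03 to -0.96 without replicate 1 or 3), Wnt7a (-1.97 to -1.56 without replicate 1, 3 or 4) and Igf1 (-2.26 without replicate 1) had log2 changes that did not pass in those fits.

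Published lists of reactive astrocyte genes did not move as blocks, where 7.89% of all genes tested rose and 9.86% fell. Of 12 tested pan-reactive genes 6 rose and 3 fell: Lcn2 led the rises, and Gfap, Vim and Hspb1 (-1.07) were those that fell. Of 9 tested genes of the A1 list, which was defined from LPS-injected mice, 5 rose and 2 fell. Those that rose were Gbp2 (3.03 ± 0.24), RT1-S3 (2.36 ± 0.24) and Psmb8 (1.49 ± 0.19), of interferon and antigen presentation, C3, and Srgn (1.20 ± 0.23), a granule proteoglycan. Fbln5, a matrix protein, and Ggta1 fell (-1.41 ± 0.16 and -0.46 ± 0.08). Of 12 genes of the A2 list, defined from ischaemia, 4 rose and 1 fell, with Tgm1 (2.12 ± 0.16), Clcf1 (0.91 ± 0.13), Ptgs2 and Cd14 as the rises and Cd109 (-1.48 ± 0.15) the fall. The medians were 0.76 for the pan-reactive, 1.49 for the A1 and 0.24 for the A2 list. The lists share genes with the interferon and prostaglandin lists above, so their counts are not separate evidence. Hspb1 (-1.09 without replicate 1), Srgn (1.04 to 1.24 without replicate 1, 3 or 4), Ggta1 (-0.50 to -0.44 without replicate 1 or 3) and Clcf1 (0.81 without replicate 1) had log2 changes that did not pass in those fits.

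**Figure D3:**
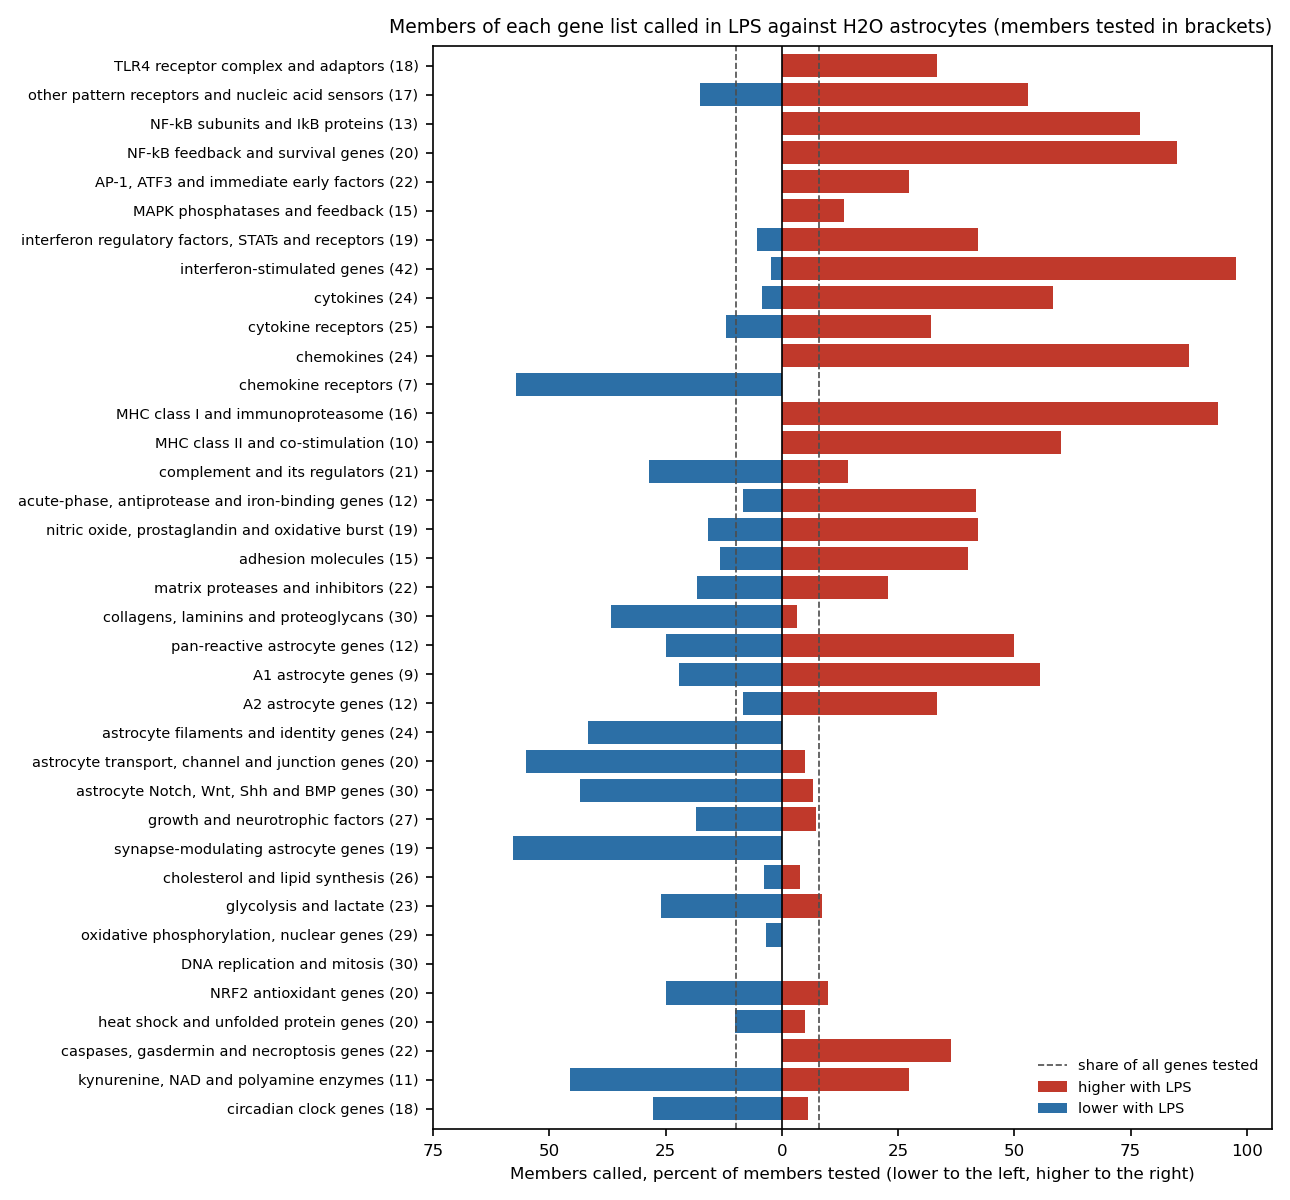
Share of the tested members of each of 37 gene lists that were called higher (red, to the right) or lower (blue, to the left) in LPS than in H2O astrocyte libraries. Dashed lines mark the share of all tested genes, 7.89% higher and 9.86% lower. Interferon-stimulated genes, MHC class I genes and chemokines lie far to the right, astrocyte transport and synapse-modulating genes to the left, and no replication gene was called.

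Oxidative phosphorylation and cholesterol genes had few calls, where 7.89% of all genes tested rose and 9.86% fell. In the glycolysis, NRF2, heat shock and clock lists the rises were near the share of all genes. Of 29 nuclear genes of oxidative phosphorylation 1 fell, and of 26 cholesterol and lipid genes 1 rose, Ch25h (1.85 ± 0.18), which makes the antiviral 25-hydroxycholesterol, and 1 fell, Dhcr7 (-0.52 ± 0.08). Of 23 glycolysis genes 6 fell, with small changes such as Pfkm (-0.63 ± 0.07) and Ldhb (-0.44 ± 0.07), and 2 rose. Of 20 NRF2 targets 2 rose, Txnrd1 (0.72 ± 0.08) and Slc7a11, and 5 fell, among them Nqo1 (-0.55 ± 0.10). Ddit3 (CHOP), a factor of the unfolded protein response, rose by 1.52 ± 0.15, with 38.2, 33.4, 55.0 and 37.8 CPM in LPS libraries, against 12, 15.9, 15.8 and 13.8 CPM in H2O libraries (adjusted p = 0.00352). It was the 1 of 20 heat shock and unfolded protein genes that rose. Of 22 genes of caspases, gasdermin and necroptosis 8 rose and none fell, among them Casp4, the sensor of cytosolic LPS (1.78 ± 0.17), with Casp8 (0.76 ± 0.11) and the necroptosis effector Mlkl (1.48 ± 0.20). Of 11 kynurenine, NAD and related nucleotide enzymes 3 rose, Cmpk2 (1.88 ± 0.17), Upp1 (2.09 ± 0.22) and Nampt (0.85 ± 0.10), and 5 fell, among them Naprt (-1.22 ± 0.12). Of 18 clock genes 5 fell and 1 rose. The falls included Dbp (-1.01 ± 0.09), Bhlhe41 (-1.44 ± 0.13) and Nr1d1 (-0.79 ± 0.11), while Clock did not pass (0.05 ± 0.07, adjusted p = 0.644). Dhcr7 (-0.52 to -0.51 without replicate 1 or 3), Ldhb (-0.43 to -0.42 without replicate 1 or 3) and Nqo1 (-0.53 to -0.52 without replicate 1 or 2) had log2 changes that did not pass in those fits.

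The 4 pairs fell into 2 sets. On the first principal component (42.3% of the variance) LPS replicates 3 and 4 stood at -62.7 and -85.1, apart from LPS replicates 1 and 2 at 15.6 and 27.1, while the H2O libraries ranged from -5.5 to 48.5. The labels name no such split, and what separated the sets was not tested. Fitted alone, replicates 1 and 2 gave 1929 higher genes (13% of those tested) and 2146 lower (14.5%), and replicates 3 and 4 gave 1480 higher (9.89%) and 1686 lower (11.3%). Of 14481 genes tested in both, 1730 were called in both, which is 42.7% of the calls of replicates 1 and 2 and 56.6% of those of replicates 3 and 4. The direction was the same for 1614 of them and opposite for 116. None of the 116 was called over all 4 pairs. These fits rest on 2 pairs each and the difference between the sets was not tested.

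The median change of cell division genes had opposite signs in the 2 sets of replicates, and the difference between the sets was not tested. Over 4 pairs none of 30 replication and mitosis genes was called, with a median log2 change of -0.28 (by contrast 9.86% of all tested genes fell). In replicates 1 and 2 alone 11 rose and 1 fell (median 0.26), and in replicates 3 and 4 alone none rose and 8 fell (median -0.83). Mki67, the marker of cycling cells, had 734, 654, 165 and 46.0 CPM in LPS libraries, against 494, 491, 171 and 143 CPM in H2O libraries. Its level was lower in replicates 3 and 4 than in 1 and 2 with either treatment, and its log2 change was 0.46 ± 0.10 in replicates 1 and 2 (adjusted p = 0.00498) and -0.79 ± 0.50 in replicates 3 and 4 (adjusted p = 0.391). Of the 116 genes called in opposite directions 63 rose in replicates 1 and 2 and fell in 3 and 4. They included Mcm5 (0.34 and -1.06), Mcm3 (0.32 and -0.78) and Cdc6 (0.53 and -0.83), which license replication origins, and the maintenance DNA methyltransferase Dnmt1 (0.53 and -0.55). The other 53 fell in replicates 1 and 2 and rose in 3 and 4. Among them was Sdc4 (syndecan-4; -0.46 and 1.38). These genes were picked here after their values were seen. Il1rn had a log2 change of 0.43 ± 0.41 in replicates 1 and 2, which did not pass (adjusted p = 0.473), and of 5.88 ± 0.14 in replicates 3 and 4. Cfb and Cd74 had log2 changes of 1.39 ± 0.09 and 3.06 ± 0.30 in replicates 1 and 2, and 4.57 ± 0.18 and 7.15 ± 0.15 in replicates 3 and 4. Cxcl10 had the larger value in replicates 1 and 2, with 4.36 ± 0.18 there and 1.99 ± 0.73 in 3 and 4. Microglial markers summed to 417 and 588 CPM in LPS replicates 3 and 4, against 207 and 178 CPM in LPS replicates 1 and 2, and were also higher in H2O replicates 3 and 4. Their part in these differences was not tested.

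**Figure D4:**
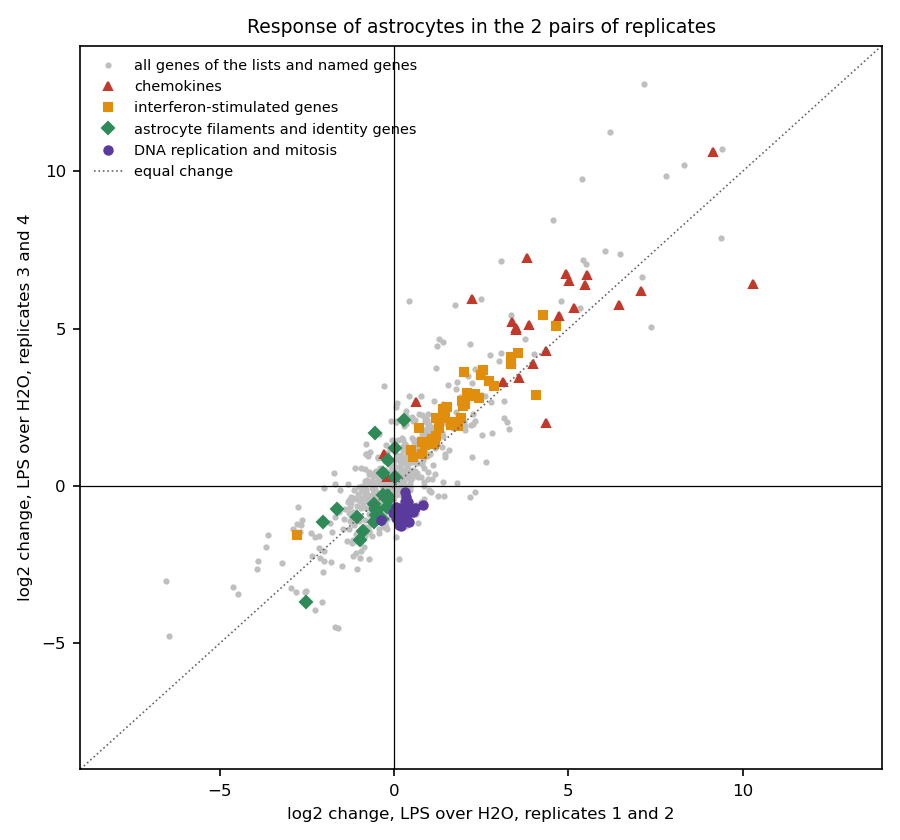
Log2 change (LPS over H2O) of the genes of the lists and the named genes in replicates 1 and 2 (horizontal) and in replicates 3 and 4 (vertical), each fitted alone. Chemokines and interferon-stimulated genes lie mostly on or above the line of equal change, while the replication genes lie mostly to the right of and below 0, with a median of 0.26 in replicates 1 and 2 and -0.83 in replicates 3 and 4.

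LPS at 100 ng/ml was also given to purified microglia of the series, 3 LPS and 3 H2O libraries, and the difference between the responses was tested for 13284 genes. The microglia were stimulated 1 day after isolation and the astrocytes 3 days after. Effects of cell type and of time in culture therefore cannot be told apart in this comparison. It was called for 3029 (22.8%): the log2 change was higher in astrocytes than in microglia for 1819 (13.7%) and lower for 1210 (9.11%). The split depended on the scaling, since with DESeq2's size factors it was 1520 and 1539, and the median difference was 0.12 with edgeR's scaling and 0.02 with that one. The list counts given next were the same with either scaling. The counts were 949 and 707 without the block, 700 and 421 without replicate 1, 617 and 468 without replicate 2, and 1186 and 1185 without replicate 4. Interferon-stimulated genes responded less in astrocytes: the difference was called negative for 27 of 43 and positive for none (median -1.31). Cxcl10 rose by 3.24 ± 0.68 in astrocytes and 9.29 ± 0.41 in microglia, a difference of -6.01 ± 0.89 (adjusted p = 0.00381), and Cxcl11 by 6.6 ± 0.32 and 11.58 ± 0.51 (-4.96 ± 0.69, adjusted p = 0.00305). Lcn2 differed by -6.05 ± 0.70 (adjusted p = 0.00146), with 689 ± 699 CPM in LPS and 17.7 ± 23.9 CPM in H2O astrocytes (SD, n = 4), against 707 ± 509.7 CPM in LPS and 0.297 ± 0.253 CPM in H2O microglia (SD, n = 3). Il6 and Ptgs2 differed by -4.42 ± 1.31 (adjusted p = 0.0446) and -3.33 ± 0.62 (adjusted p = 0.00883). Cxcl11, Il6 and Lcn2 had 7, 11 and 36 counts in all H2O microglia together, so the sizes of their differences rest on few counts. C3 responded more in astrocytes: its log2 change was 1.92 ± 0.29 in astrocytes and -0.60 ± 0.19 in microglia, a difference of 2.54 ± 0.40 (adjusted p = 0.0047). The change of C3 in microglia alone did not pass (adjusted p = 0.0714). Differences for Nfkbia (0.70 ± 0.40), Tnf (0.71 ± 0.64), Ccl2 (-0.54 ± 0.97), Ccl5 (0.82 ± 1.45), Vcam1 (1.75 ± 0.59) and Tlr4 (0.38 ± 0.36) did not pass.

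Replication and glycolysis genes differed between the cell types as groups. The difference was called positive for 23 of 30 replication genes (median 2.50). In microglia alone 26 of 30 tested replication genes fell, and the share of all genes that fell there is not given here. Mki67 had 734, 654, 165 and 46.0 CPM in LPS astrocyte libraries and 494, 491, 171 and 143 CPM in H2O astrocyte libraries, against 2.43, 6.58 and 8.61 CPM in LPS and 184, 88.7 and 182 CPM in H2O microglia (difference 4.32 ± 0.71, adjusted p = 0.00534). For glycolysis genes it was called negative for 13 of 21 and positive for 1 (median -1.36). The 6 largest positive differences were those of Dhrs9, Rassf9, Cd83, Rbm25l1, Lrrc39 and Slc15a2. Dhrs9, a retinol dehydrogenase, had 34 ± 23.6 CPM in LPS and 12 ± 5.82 CPM in H2O astrocytes, against 1.09 ± 1.04 CPM in LPS and 89.2 ± 10.7 CPM in H2O microglia (7.66 ± 0.76, adjusted p = 8.09e-04). Cd83, a surface protein of activated antigen-presenting cells, rose by 4.59 ± 0.25 in astrocytes, while its change in microglia was -1.20 ± 0.65 and did not pass. Rassf9 and Rbm25l1 had no count in any LPS microglial library and under 0.3 CPM on average in H2O microglia, so their differences rest on few microglial counts, and that of Rbm25l1 did not pass without replicate 3 or without the block. The 6 largest negative differences were those of Plac8, Adra2a, Upp1, Chadl, Sntb1 and Vwa1, which had between 10 and 46 counts in all H2O microglia together, so that the sizes rest on few counts. Plac8 and Lrrc39 had 31 and 19 counts in H2O astrocytes and were not tested in astrocytes alone. Upp1, a uridine phosphorylase, rose by 2.09 ± 0.22 in astrocytes and 10.49 ± 0.27 in microglia (-8.38 ± 0.42, adjusted p = 1.45e-04), and had 0.0819 ± 0.0405 CPM in H2O microglia. Sntb1, a syntrophin of the dystrophin complex, had 38.8 ± 18.9 CPM in LPS and 38.4 ± 11.8 CPM in H2O astrocytes, against 23.6 ± 0.720 CPM in LPS and 0.234 ± 0.0570 CPM in H2O microglia (-6.98 ± 0.31, adjusted p = 9.46e-05).

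**Figure D5:**
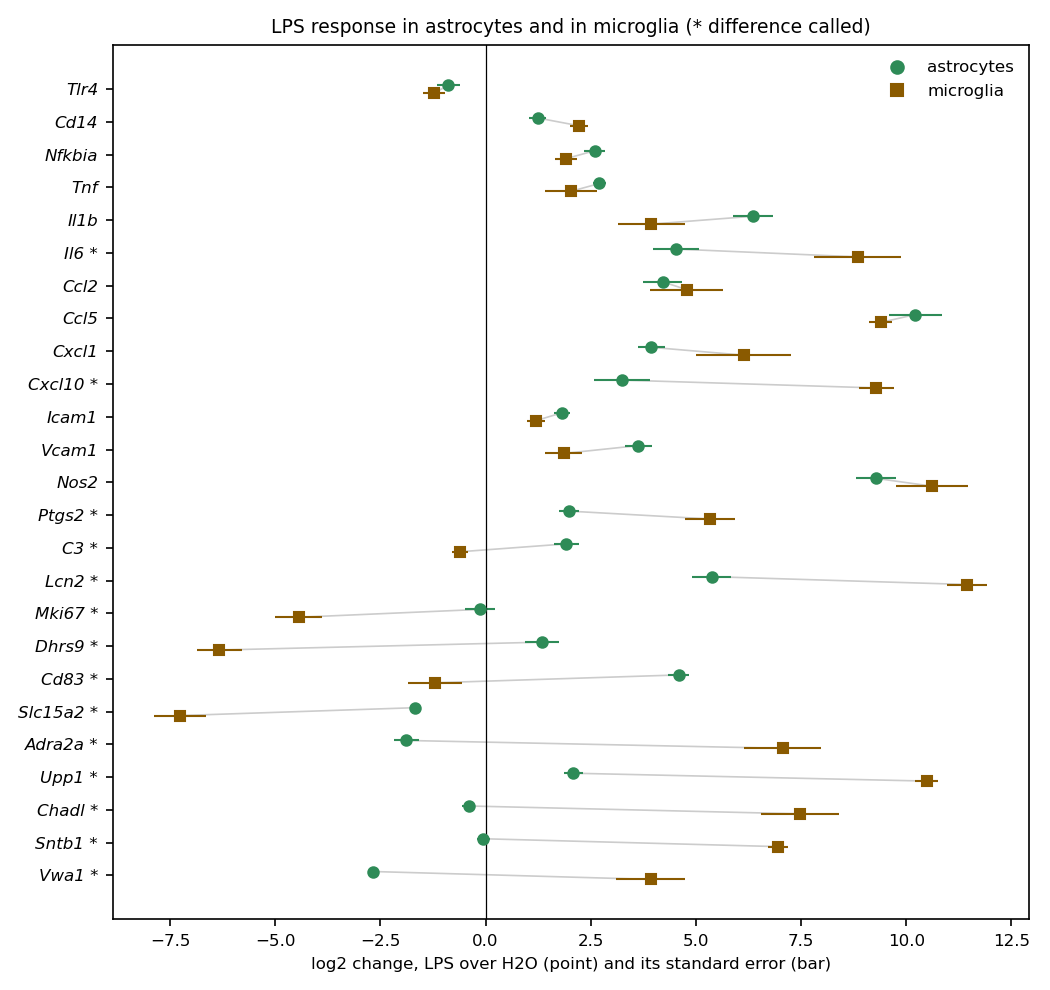
Log2 change (LPS over H2O) and its standard error in astrocytes (circles) and in microglia (squares) for genes of the fixed panel and for genes with the largest differences. Stars mark genes whose difference was called. Mki67 was at -0.13 in astrocytes and -4.44 in microglia, C3 at 1.92 and -0.60, and Lcn2 at 5.37 and 11.45.

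Astrocytes of the series were also stimulated with recombinant ENV, an envelope protein of a human endogenous retrovirus (HERV-W), at 1 µg/ml and with buffer as its vehicle, in 4 libraries each. This set has its own controls, so the responses can be compared without shared samples. The LPS response minus the ENV response was called for none of 15496 genes (0%) in edgeR's quasi-likelihood test, with 246 at an unadjusted p under 0.05 and a median standard error of 0.20. Pairing the responses by replicate number, an alternative chosen after seeing the data, also gave none, with 1088 at an unadjusted p under 0.05 and a median standard error of 0.14. Ccl5 changed by 10.22 ± 0.64 with LPS and 10.21 ± 0.50 with ENV, Cxcl1 by 3.94 ± 0.32 and 4.38 ± 0.39, Vcam1 by 3.63 ± 0.32 and 3.88 ± 0.36, and Gfap by -1.59 ± 0.21 and -1.49 ± 0.14. Nkain4 changed by -2.96 ± 0.21 with LPS and -4.22 ± 0.26 with ENV, a difference of 1.27 ± 0.35 that did not pass. Differences below the resolution of 4 libraries a group were not detectable here.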

How the data were processed

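RNA-seq libraries of 150 ng total RNA with mRNA capture were made from primary rat astrocytes, per the labels' protocols. The deposited values are gene counts, whole numbers that the authors gave per gene and sample with no normalization. The submitters' processing notes list HISAT2, StringTie 1.3.3b and mRatBN7.2. Whether counting used the strand is not given. Without strand, reads of a gene and of an overlapping antisense gene cannot be told apart.

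Genes were filtered with filterByExpr, scaled by TMM and tested with edgeR 4.0.16 (R 4.3.3, quasi-likelihood F test, robust) with replicate number as a block and Benjamini-Hochberg adjustment. Calls needed an adjusted p under 0.05. Standard errors were derived from the F statistic. The block was used because same-numbered LPS and H2O libraries deviated together from their group means in log2 CPM (r of 0.61, 0.53, 0.55 and 0.63), while the labels do not say what a number stands for. The differences from the microglial and from the ENV response are interaction terms in one fit over both sets. CPM, counts scaled to 1000000 per library, were computed from the total counts per library, between 23742228 and 29867271 here, and intervals and floors hold counting error alone. The alternatives were no block, DESeq2 size factors, no filter, a filter at a mean of 1 CPM, each replicate left out, replicates 1 and 2 or 3 and 4 alone, and the Wald test of DESeq2 1.42.0. The pipeline was tested on simulated data in which 200 of 14710 genes changed. Of the calls made there 10.9% were false, which is above the threshold on the adjusted p. The test recovered 70% of the 2-fold and 94% of the 4-fold changes. Far more genes were called in the real data, so these shares need not hold there. Promoter sequences came from RefSeq on GRCr8 and were not placed on mRatBN7.2.

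The comparison, the 37 functional and 9 marker lists and the split by replicate were chosen with earlier results of these data known. Named genes were the 12 largest rises and falls among called genes with all pairs in one direction and a group mean of at least 10 CPM, a fixed panel, up to 4 called and 2 uncalled members of each list, and 6 differences per direction. Other list members were named after their values were seen. Some list members and results are not reported here.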

Additional observations from a re-analysis of the deposited data

Results flagged for a closer look

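In 378 checks of single libraries against the other 3 of their group, 27 values stood apart from the rest (Dixon's test), where chance gives about 1 in 20. H2O replicate 4 was the high library for most of them, and most are inflammatory genes: Wfdc21 at 0.290 CPM, RT1-Da at 0.248 CPM, Cxcl11 at 1.78 CPM, Ccl20 at 21.4 CPM, Cxcl1 at 173 CPM, Cxcl2 at 7.08 CPM, Cxcl3 at 8.57 CPM, Cxcl10 at 37.4 CPM, Ccl22 at 0.124 CPM, Vcam1 at 186 CPM, Lcn2 at 53.2 CPM, Steap4 at 5.05 CPM, Ass1 at 122 CPM and Birc3 at 21.0 CPM. The same library was high for Aldh1l1 at 67.0 CPM, Mertk at 61.5 CPM and Slc1a3 at 1705 CPM. LPS replicate 3 was high for Actc1 at 3.48 CPM, Acta1 at 23.6 CPM, Ifit3 at 215 CPM, Il12b at 7.06 CPM, Parp14 at 743 CPM and the sum of neuronal markers at 468 CPM. Klf4 at 3.19 CPM and Mmp3 at 0.105 CPM stood out in H2O replicate 1, and Lama1 at 0.223 CPM and Trib3 at 0.596 CPM in H2O replicate 2. The values of Ccl22 and Mmp3 stand for 3 counts, and those of Wfdc21, RT1-Da and Lama1 are also near that floor. Many of the named genes are inflammatory, so the number of such genes among these values is not a separate result.

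The LPS response of astrocytes minus that of microglia, tested as an interaction, was 7.66 (log2) for Dhrs9, 6.83 for Rassf9, 5.81 for Cd83, 5.71 for Rbm25l1, 5.66 for Lrrc39 and 5.55 for Slc15a2. It was -10.77 for Plac8, -8.97 for Adra2a, -8.38 for Upp1, -7.79 for Chadl, -6.98 for Sntb1 and -6.59 for Vwa1.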

How the results depend on the processing

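Without the replicate block 785 genes were called (389 higher, 396 lower), and with replicates 1 and 2 alone 4075, of which 1929 were higher. Leaving out 1 replicate, LPS and H2O together, gave 966 to 1774 called genes, with 416 to 712 higher and 547 to 1075 lower. DESeq2's size factors, both other filters, replicates 3 and 4 alone and the DESeq2 Wald test kept these counts within 1.5 times. The difference from microglia was called for 1656 genes without the block (949 higher, 707 lower), and for 1085 to 2592 when a replicate was left out, with 617 to 1550 higher and 421 to 1185 lower. The difference from the ENV response was called for 0 genes under each edgeR alternative run, and DESeq2 was not run there. The log2 changes of 4 genes turned round and were called with replicates 1 and 2 alone: Mki67 at 0.46, Cdc6 at 0.53, Mcm3 at 0.32 and Mcm5 at 0.34, the last 3 chosen for that. Uncalled changes that turned round, such as that of Aqp4, are not counted among these. Of the changes and differences of named genes, 1860 values under the alternatives kept their call or lack of a call, 155 lost the call and 43 gained one. Uncalled values among the 1860 could change direction. Of the counts of called list members under the alternatives 744 were within 1.5 times the values given and 268 were not. The cause of these changes was not tested, except that fits without a replicate hold fewer samples. Depth limits genes near 0.1 CPM, where 3 counts stand, and 4 libraries a group limit small changes.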
